A study of Mus musculus with 11 samples.

Results

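Interferon-stimulated genes are the genes that cells switch on when type I interferon, the cytokine of the antiviral response, binds its receptor. The receptor, made of IFNAR1 and IFNAR2, activates the kinases JAK1 and TYK2, which phosphorylate STAT proteins, among them STAT2. These join IRF9 and bind the interferon-stimulated response element in the promoters of the target genes, whose products sense viral nucleic acid, block its translation or degrade it. Many of these genes also have a basal level in unstimulated blood cells, which differs between cell types. The 34 genes described here were chosen by symbol as genes of the type I interferon response, of nucleic acid sensing and of antiviral defence, and all 34 were found among the 24319 genes measured. Of these, 32 reached FPKM 1 (fragments scaled for transcript length and sequencing depth) in at least 2 of the 8 replicate units and entered the tests. Rsad2 and Trim21 did not.

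RNA was sequenced from 11 libraries of C57BL/6J mice in 3 groups. The leukemic cells (B-ALL) were obtained from lymph nodes of 3 diseased Ebf1+/- Pax5+/- mice, numbered 686, 713 and 760, with 2 libraries per mouse. The dHet proB cells were Ebf1+/- Pax5+/- Rag2-/-, so they lack the Rag2 recombinase gene that the leukemic mice carry. They had been grown from c-Kit+ fetal liver cells on OP9 feeder cells with IL-7, Flt3L and SCF, and gave 3 libraries. The wt proB cells were Ebf1+/+ Pax5+/+ Rag2+/+ cells of the FrBC fraction, sorted from bone marrow of control mice, and gave 2 libraries. EBF1 and PAX5 are transcription factors of B cell commitment, and the comparisons ask how leukemic, pre-leukemic and normal cells of this lineage differ. Tissue, culture, Rag2 genotype and leukemia change together between the groups and cannot be told apart.

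Levels are FPKM, which scale for transcript length, so that levels of different genes can be compared. Changes are log2 differences of FPKM + 1 with the standard error (SE), and a gene passed where its limma p-value, adjusted over 11110 genes, was below 0.05. In these comparisons the replicate of B-ALL was the mouse (n = 3), against n = 3 dHet proB and n = 2 wt proB libraries. The read depth is unknown. Between 9850 and 10595 genes per library reached FPKM 1. Of the 10 B lineage markers, Cd79a, a signalling chain of the B cell receptor, was at 1247 to 2375 FPKM over the libraries. Vpreb1, a chain of the surrogate light chain, was at 1352 to 2516. In B-ALL, 4 of the 10 passed as lower than in dHet proB (11% of all genes) and 2 as lower than in wt proB (10.0%). None of the 10 passed as higher in either comparison. Rag2 was listed at 8.57 to 12.6 FPKM in dHet proB, which are labelled Rag2-/-. It was at 11.1 to 16.6 in B-ALL, overlapping dHet proB, and at 31.1 to 37.8 in wt proB. FPKM values do not tell an intact from a truncated transcript.

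Markers of other cell types moved with the groups. The wt proB libraries held 6 defining markers of plasmacytoid dendritic cells (Siglech, Ccr9, Klk1, Cox6a2, Pacsin1 and Cd300c) at a summed 232 to 366 FPKM, against 1.65 to 7.04 in B-ALL and 2.86 to 25.1 in dHet proB. Plasmacytoid dendritic cells are specialised interferon producers, and are known to express Bst2 and Irf7 strongly. Klk1 was listed at 0 in all B-ALL and dHet proB libraries, and Siglech and Cd300c in all dHet proB libraries. The 10 neutrophil and monocyte markers summed to 539 to 561 FPKM in wt proB, 28.6 to 262 in B-ALL and 13.8 to 51.7 in dHet proB. Over 8 T and NK cell markers the sums were 8.82 to 31.2 FPKM in B-ALL, 0.195 to 1.82 in dHet proB and 16.8 to 21.4 in wt proB. Stromal markers, 8 genes of which the OP9 feeder cells could be a source, did not exceed 2.78 FPKM in sum. In such bulk libraries, fewer cells of a type and less RNA per cell cannot be told apart.

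Promoter windows of 300 bases, 250 before and 50 after the transcription start, were found in RefSeq (build GRCm38.p6) for 27 of the 34 genes. The interferon-stimulated response element, written as GAAANNGAA on either strand, occurred in the windows of 16 of these 27 genes (59.3%) and in those of 9.76% of 27025 genes. The gamma-activated site TTCNNNGAA, an element of the interferon gamma response, occurred in 7 of the 27 (25.9%) and in 9.55% of all genes. Matches may overlap one another, and a match describes the letters, not binding. Of the 6 genes that passed a test between groups, Oas1a, Oas3, Bst2, Samd9l and Ifi44 held the response element, while the window of Oasl1 did not hold these letters. The stretches below show the element, in capitals, in 3 of the genes that passed, and in Isg15 and Ifit1, which are among the best known targets of the pathway. All are written 5′ to 3′ on the strand of the gene, and in Ifit1 the element reads on the opposite strand.
Oas1a (chr5:120907526-120907570, minus strand): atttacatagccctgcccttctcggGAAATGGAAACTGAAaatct
Oas3 (chr5:120777695-120777759, minus strand): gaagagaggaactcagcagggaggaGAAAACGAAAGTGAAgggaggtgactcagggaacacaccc
Bst2 (chr8:71537563-71537627, minus strand): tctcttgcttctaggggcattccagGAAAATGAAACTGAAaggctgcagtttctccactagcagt
Isg15 (chr4:156200851-156200921, minus strand): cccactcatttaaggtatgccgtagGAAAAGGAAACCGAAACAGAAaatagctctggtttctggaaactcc
Ifit1 (chr19:34640755-34640838, plus strand): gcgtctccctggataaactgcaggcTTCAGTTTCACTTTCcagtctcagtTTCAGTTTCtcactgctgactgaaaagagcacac
In Oas1a, Oas3 and Bst2 the capitals span 15 bases with 2 overlapping matches. The run in Isg15 spans 21 bases with 3 matches. Those of Oas1a end 6 bases before the start, those of Oas3 61 bases, those of Isg15 58 bases and those of Bst2 116 bases before it.

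**Figure D1:**
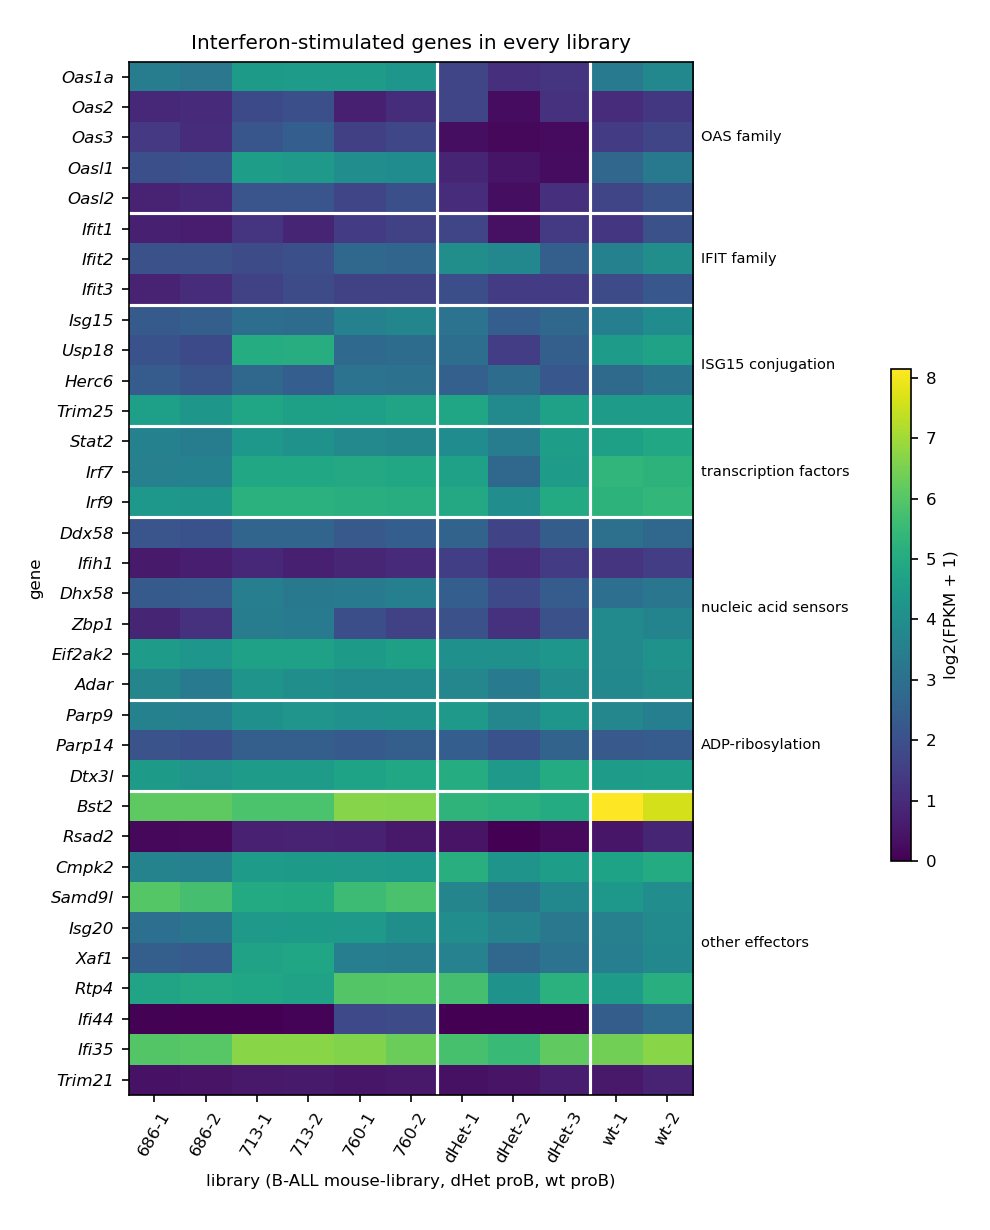
Level of the 34 genes (rows, grouped by role) in the 11 libraries (columns: B-ALL mouse and library number, then dHet proB and wt proB), as log2(FPKM + 1) from dark (0) to yellow. Bst2 had the highest level, in wt proB, while Rsad2 and Trim21 stayed below FPKM 1 in all libraries and both libraries of mouse 686 were darker than those of mice 713 and 760 in most rows.

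The level of the set was lowest in dHet proB library 2 and highest in wt proB library 2, and varied widely within B-ALL and within dHet proB. The mean log2(FPKM + 1) over the 34 genes was 2.69 and 2.65 for mouse 686, 3.45 and 3.43 for mouse 713, and 3.36 and 3.39 for mouse 760. The dHet proB libraries had means of 3.01, 2.38 and 2.81, the wt proB libraries 3.40 and 3.61. Mice 713 and 760 thus lay near wt proB, and mouse 686 within the range of dHet proB. Between 25 and 32 of the 34 genes reached FPKM 1 in a library. By their mean over the libraries Bst2, Ifi35, Rtp4, Samd9l and Irf9 were the most abundant of the genes, and Rsad2, Trim21, Ifih1, Oas2 and Ifi44 the least.

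**Figure D2:**
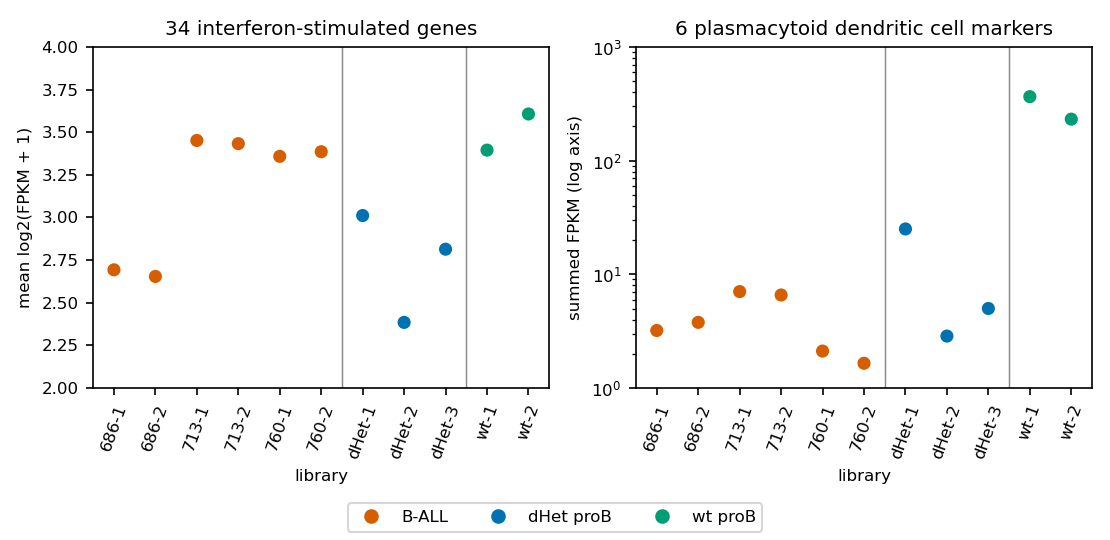
Left, mean log2(FPKM + 1) of the 34 genes in each library (the axis starts at 2). Right, summed FPKM of 6 plasmacytoid dendritic cell markers in the same libraries on a log axis. The dots of mouse 686 (2.69 and 2.65) lay below those of the other mice, and the marker sum was 232 to 366 FPKM in wt proB against at most 25.1 elsewhere.

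The leukemic cells were compared with the dHet proB cells first, since both carry the Ebf1 and Pax5 mutations. Of the 32 genes tested, 5 were higher in B-ALL, against 14.5% of all genes tested, and 0 were lower, against 11%. The 5 were the synthetase family genes Oas1a, Oas3 and Oasl1, the tetherin gene Bst2 and Samd9l. Oas3 and Oasl1 stayed below FPKM 1 in all dHet proB libraries, so they entered the test through the groups in which they are high. At an unadjusted p below 0.05 limma gave 8 higher and 2 lower. The median change of the 32 genes was 0.24, and that of all genes 0.04. Positive changes were found for 23 genes and negative ones for 9, while 52.7% of all tested genes had a positive change. The median fell to 0.01 without dHet proB library 2, the library with the lowest levels. Rescaling each library to a common sum (TPM) moved the median of all genes by -0.15. The share of higher genes among all calls went from 57% to 38.8%, and to 46.5% after quantile normalization. The number of interferon-stimulated genes higher remained 5 under both, of 34 tested with TPM (9.55% of all genes) and 32 with quantile normalization (11.9%). T and NK cell markers were higher in B-ALL as well, 7 of 8 passing. Cd3e, Cd4, Cd8a and Gzma were listed at 0 in all dHet proB libraries. The part of such cells in the following values was not tested.

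The OAS family are enzymes that, on sensing double-stranded RNA, make the oligoadenylates which activate RNase L, together with related OAS-like proteins. Oas1a had 9.98 and 8.39 FPKM for mouse 686, 20.6 and 21.7 for mouse 713, and 21.1 and 18.4 for mouse 760, against 2.23, 1.15 and 1.39 FPKM in the dHet proB libraries and 9.46 and 12.9 in wt proB. All B-ALL libraries lay above all dHet proB libraries (log2 change 2.71 ± 0.33 SE, adjusted p = 0.00211), and mouse 686 lay at the level of wt proB. The wt proB libraries were higher than dHet proB too (log2 change -2.24 ± 0.37 SE, adjusted p = 0.00744), whereas B-ALL and wt proB did not pass a test of their difference (adjusted p = 0.401). Of the 50-base words in the transcripts of Oas1a, 57.6% recur in the neighbouring paralog Oas1g, so reads could be split between the pair. Oas1g itself was listed at no more than 1.54 FPKM.

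Oas3, the largest synthetase, followed the same order at a lower level. It had 1.55 and 1.06 FPKM for mouse 686, 3.48 and 4.36 for mouse 713, and 1.93 and 2.32 for mouse 760, with 0.241, 0.14 and 0.184 for dHet proB and 1.75 and 2.24 for wt proB. Every dHet proB library was below every other library. The test gave a log2 change of 1.46 ± 0.27 SE, adjusted p = 0.00904 against dHet proB, and dHet proB was lower than wt proB (log2 change -1.33 ± 0.30 SE, adjusted p = 0.033). In 8 of 24 other settings, including each that left out 1 of the 5 proB libraries, the call against wt proB was lost.

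Oasl1, an OAS-like protein that lacks synthetase activity and restrains the translation of Irf7, gave the largest change of the 32 tested genes against dHet proB. It had 3.01 and 3.15 FPKM for mouse 686, 22.1 and 19.8 for mouse 713, and 15 and 14.4 for mouse 760. The dHet proB libraries had 0.80, 0.39 and 0.207 and the wt proB libraries 5.42 and 8.88. Levels in mice 713 and 760 exceeded wt proB, those of mouse 686 lay below it, and dHet proB was below all of them (log2 change 2.95 ± 0.57 SE, adjusted p = 0.0101 for B-ALL against dHet proB). Between dHet proB and wt proB the test gave a log2 change of -2.46 ± 0.64 SE, adjusted p = 0.0534, which did not pass. In 7 of 24 other settings it did pass, with adjusted p = 0.00349 without mouse 686 and 0.00224 with only the 2 groups in the fit.

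Oasl2 and Oas2 did not pass between groups. Oasl2, the neighbour of Oasl1 and an OAS-like protein with synthetase activity, had 0.729 and 0.857 FPKM for mouse 686, 3.44 and 3.47 for mouse 713, and 2.23 and 2.94 for mouse 760, 1.06, 0.228 and 1.14 for dHet proB and 2.25 and 3.21 for wt proB. Oas2 ranged from 0.204 to 2.95 FPKM over all libraries, and spanned most of this range within dHet proB (2.27, 0.204 and 1.24). Of the 5 OAS genes, 3 were higher in B-ALL than in dHet proB (14.5% of all genes), 2 were lower in dHet proB than in wt proB (6.50%), and none of the 5 passed between B-ALL and wt proB.

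**Figure D3:**
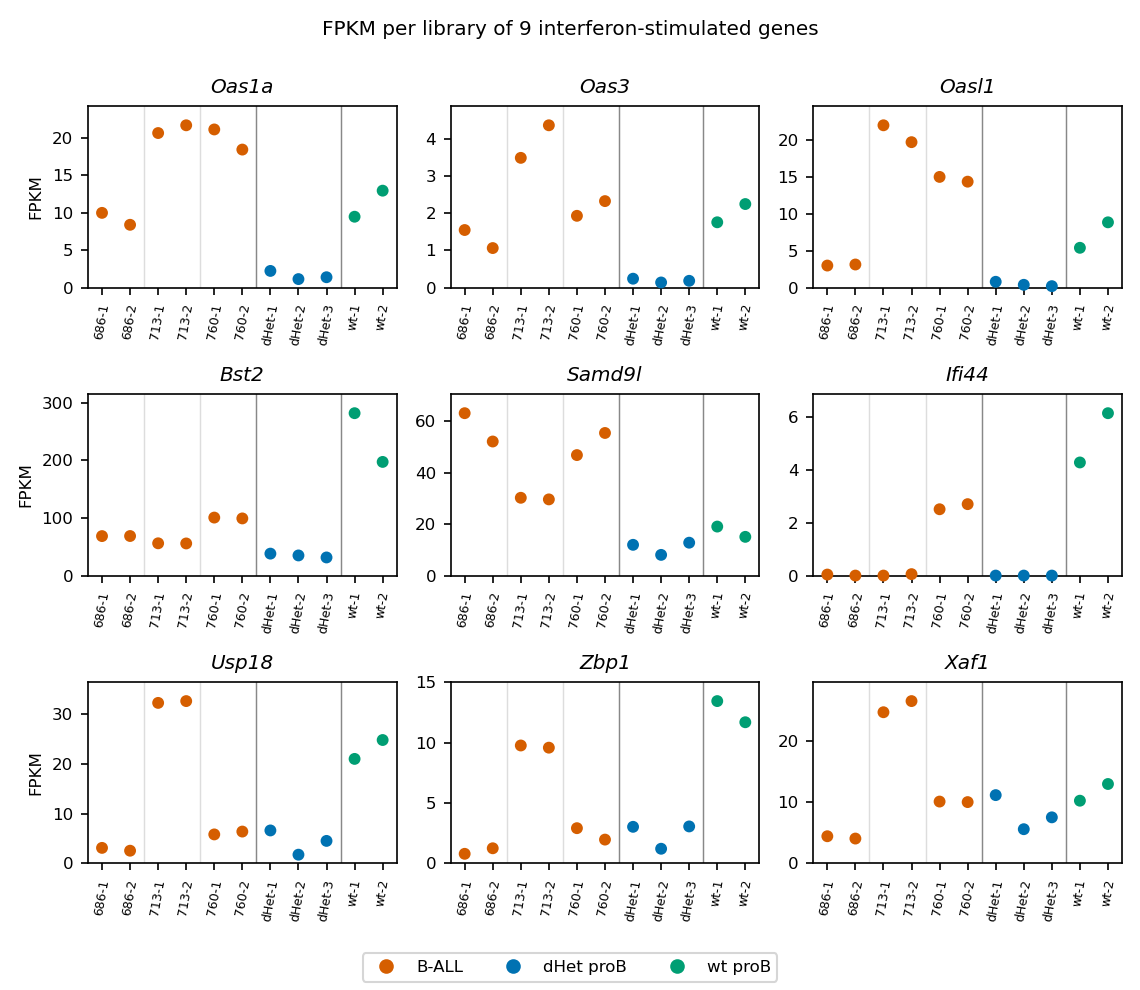
FPKM of 9 genes in every library (dots), with B-ALL mice, dHet proB and wt proB separated by vertical lines and each axis starting at 0. The dHet proB dots of Oas1a, Oas3 and Oasl1 lay below all others, Samd9l was highest in B-ALL, Bst2 in wt proB, and Usp18, Zbp1 and Xaf1 were high in mouse 713 alone among the mice.

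The remaining calls against dHet proB were Bst2 and Samd9l. Bst2 encodes tetherin, a membrane protein that holds budding virus at the cell surface. It had 68.6 and 68.7 FPKM for mouse 686, 56.1 and 55.8 for mouse 713, and 101 and 99.3 for mouse 760, 38.1, 35 and 31.5 for dHet proB and 282 and 197 for wt proB. The groups did not overlap and lay in the order dHet proB, B-ALL and wt proB, with B-ALL 74.9 ± 22.7 FPKM (SD, n = 3) against 34.9 ± 3.32 in dHet proB (n = 3, log2 change 1.04 ± 0.23 SE, adjusted p = 0.0168). Samd9l, an antiviral factor and a tumour suppressor in myeloid disease, had 63.2 and 52.2 FPKM for mouse 686, 30.3 and 29.7 for mouse 713, and 46.9 and 55.5 for mouse 760. The proB libraries had 12, 8.06 and 12.8 (dHet) and 19.1 and 15.1 (wt). All 6 leukemic libraries exceeded all proB libraries, and the test gave a log2 change of 1.95 ± 0.28 SE, adjusted p = 0.00352. In each of the 24 other settings the 5 genes kept their calls against dHet proB.

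The IFIT family are RNA-binding proteins that block the translation of viral RNA. Against dHet proB, none of its 3 members passed, and the change of each was negative. Ifit2 had 3.03 and 3.09 FPKM for mouse 686, 2.69 and 3.0 for mouse 713, and 5.75 and 5.34 for mouse 760, 15.5, 13 and 4.55 for dHet proB and 10.9 and 15.4 for wt proB. Mice 686 and 713 lay below all proB libraries, and mouse 760 lay above dHet proB library 3. The test gave a log2 change of -1.22 ± 0.42 SE, adjusted p = 0.0679, and 4 of 24 other settings called it lower (adjusted p = 0.00958 without dHet proB library 3). Ifih1, which encodes the double-stranded RNA sensor MDA5, had values from 0.50 to 0.961 in B-ALL and from 0.963 to 1.86 in dHet proB. It passed as lower only without dHet proB library 2 (adjusted p = 0.0380 against 0.0941 with all libraries).

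Leukemic cells were next compared with wt proB cells. Of the 32 genes, 1 was higher in B-ALL, Samd9l, against 8.15% of all genes tested. Bst2 and Ifi44, 2 of the 32, were lower, against 10.0%. The median of the 32 changes was -0.22, with 11 positive and 21 negative, and that of all genes was -0.02. Without mouse 686 the median was 0.07, so its sign rested on that mouse. Rescaling to TPM moved the median of all genes by -0.20 and the share of higher genes among all calls from 44.9% to 23.8%. Of the 34 interferon-stimulated genes then tested, 0 were higher and 3 lower, against 4.49% and 14.4% of all genes. The markers of plasmacytoid dendritic cells (8 of 9) and of neutrophils and monocytes (7 of 10) were lower in B-ALL, and of the T and NK markers 3 were higher and 2 lower. Their part in these changes was not tested. The comparison uses the same B-ALL libraries as the preceding one.

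Samd9l was 2.71 times as high in B-ALL as in wt proB by the group means (46.3 ± 14.5 FPKM, SD, n = 3, against 17.1 ± 2.83, n = 2, log2 change 1.34 ± 0.31 SE, adjusted p = 0.0226). The call was lost after rescaling to TPM (adjusted p = 0.0507), without mouse 686 (0.0691), without mouse 760 (0.0560) and without wt proB library 1 (0.0994) or library 2 (0.190). Bst2 was 3.20 times as high in wt proB (239.7 ± 59.8 FPKM against 74.9 ± 22.7, log2 change -1.69 ± 0.26 SE, adjusted p = 0.00492), and did not pass without wt proB library 1 (adjusted p = 0.0676). The library with the higher Bst2 value, wt proB library 1, also had the higher sum of the 6 plasmacytoid dendritic cell markers, 366 against 232 FPKM. The mean log2(FPKM + 1) of the 34 genes went the other way, at 3.40 in library 1 and 3.61 in library 2. With 2 libraries the part of such cells was not tested. Ifi44, an interferon-induced cytoplasmic protein, was listed at 0.0381 and 0 FPKM for mouse 686, 0 and 0.0545 for mouse 713, and 2.51 and 2.7 for mouse 760. It was at 0 in all dHet proB libraries and at 4.28 and 6.14 in wt proB. In B-ALL it was thus near 0 in mice 686 and 713 and present in mouse 760, and all B-ALL libraries were below wt proB (log2 change -1.98 ± 0.51 SE, adjusted p = 0.0341). This call was lost in 9 of 24 other settings, including those without mouse 686, mouse 713, dHet proB library 1 or either wt proB library (adjusted p = 0.0554 to 0.239), and without the filter on low values (adjusted p = 0.0648). Outside wt proB only mouse 760 reached FPKM 1, so the gene passed that filter through the group in which it is high.

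Every B-ALL library was below both wt proB libraries for 10 of the 32 genes, as for 24.7% of all genes tested, and most of these genes did not pass. Among the transcription factors, Irf9, the DNA-binding subunit of the interferon-activated complex, had 19.2 and 18.9 FPKM for mouse 686, 35.4 and 36 for mouse 713, and 33.3 and 32.7 for mouse 760, with 29.4, 14.8 and 30.3 for dHet proB and 37.5 and 41.5 for wt proB. Irf7, which drives interferon genes and is itself interferon-induced, had 10.8 and 11 FPKM for mouse 686, 28 and 28.7 for mouse 713, and 29.4 and 28.8 for mouse 760, 24.6, 5.8 and 21 for dHet proB and 40.1 and 37.7 for wt proB. Both genes were lowest in dHet proB library 2 and lower in mouse 686 than in the other mice. For Irf7 the change from wt proB to B-ALL was -0.86 ± 0.61 SE, adjusted p = 0.348. Stat2, a subunit of the same complex, ranged from 9.99 to 19.4 FPKM in B-ALL, 9.93 to 22.7 in dHet proB and 24 to 28.4 in wt proB. None of these 3 factors passed in any of the 3 comparisons as fitted.

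The dHet proB cells were last compared with wt proB cells. None of the 32 genes was higher in dHet proB, against 2.18% of all genes tested (limma, with 0 at an unadjusted p below 0.05 and 0 in each of the 24 other settings). Lower were 4, namely Oas1a, Oas3, Bst2 and Ifi44, against 6.50% of all genes, and 11 at an unadjusted p below 0.05. Of the 4, Ifi44 reached FPKM 1 only in wt proB and mouse 760, so it entered the test through the group in which it is high. Oas3 was below FPKM 1 in all dHet proB libraries and likewise entered through wt proB and B-ALL. The median change was -0.56 and that of all genes -0.04, with 27 negative and 5 positive values, while 46% of all genes had a positive change. The 5 positive values included the ADP-ribosylation genes Parp9, Parp14 and Dtx3l. Quantile normalization raised the share of higher genes among all calls from 25.1% to 41.8%, with 3 interferon-stimulated genes lower (5.71% of all genes). The number lower was 7 without mouse 713 (8.38% of all genes) or with only the 2 groups in the fit (8.65%). It was 2 without dHet proB library 1 (4.77%) or library 3 (5.71%), and 1, Bst2, without wt proB library 1 (0.581%) or library 2 (0.875%). These values share the dHet proB and wt proB libraries with the other comparisons, and the plasmacytoid dendritic cell and neutrophil markers were higher in wt proB (7 of 9 and 7 of 10 passed). The part of those cells in the result was not tested.

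Among the 4 calls, Bst2 had the largest change on the log2(FPKM + 1) scale, with 34.9 ± 3.32 FPKM in dHet proB (SD, n = 3) against 239.7 ± 59.8 in wt proB (n = 2, log2 change -2.73 ± 0.26 SE, adjusted p = 0.000744), and kept its call in all 24 other settings. By the ratio of group means, wt proB was 6.88 times as high for Bst2, 7.04 times for Oas1a and 10.6 times for Oas3. Ifi44 was listed at 0 in dHet proB, so no fold is given (log2 change -2.62 ± 0.51 SE, adjusted p = 0.0179), a call lost on leaving out dHet proB library 1 (0.0583), dHet proB library 3 (0.0505), wt proB library 1 (0.143) or wt proB library 2 (0.207). Oas1a and Oas3 are described above. Oas1a lost its call without wt proB library 1 (adjusted p = 0.0862) or library 2 (0.125).

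**Figure D4:**
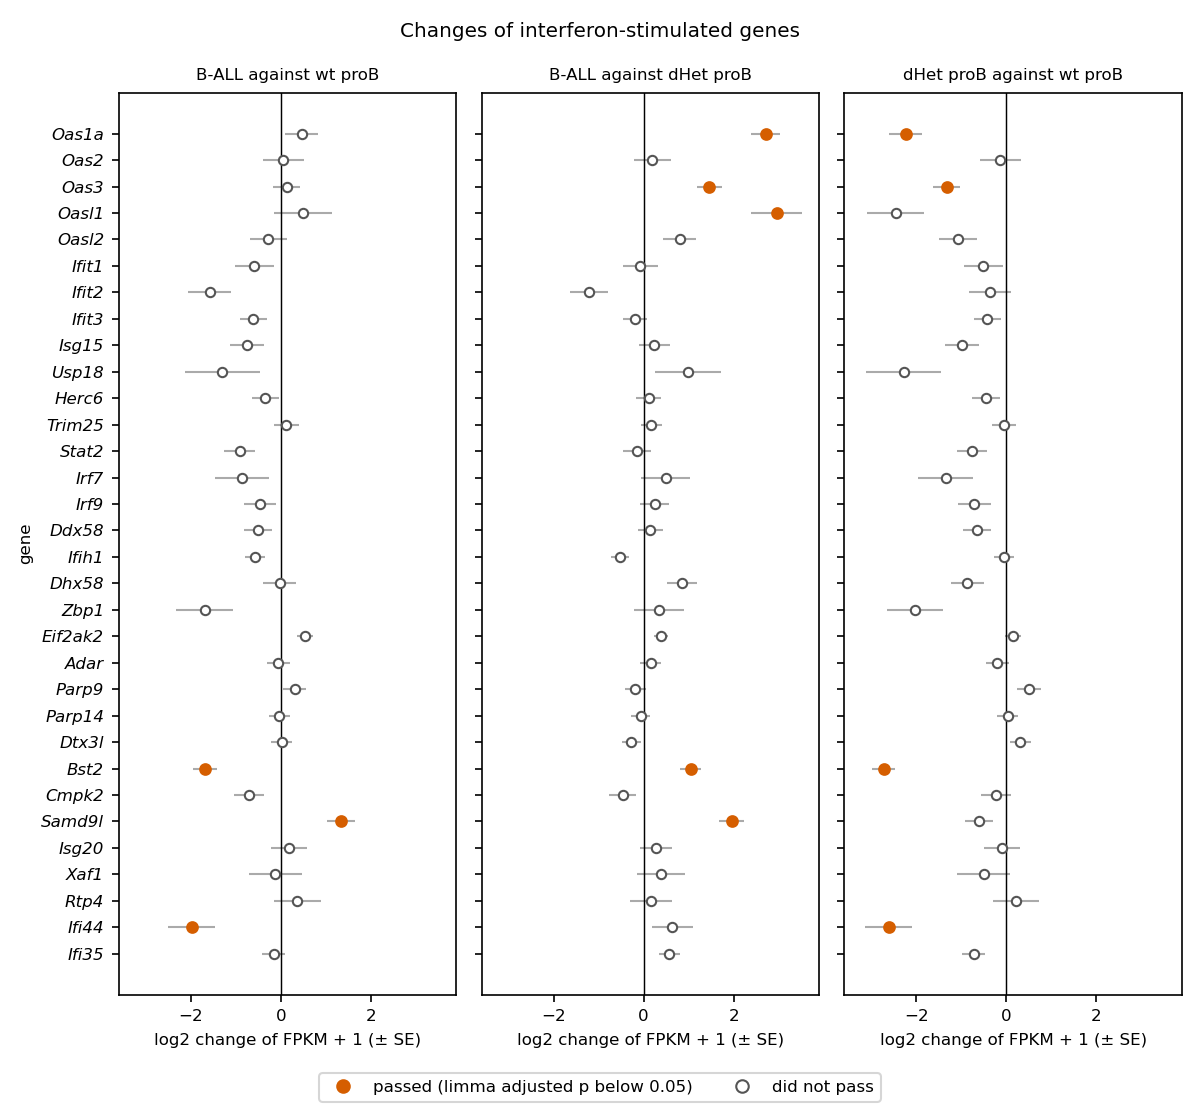
Log2 change of FPKM + 1 with its SE (bars) for the 32 genes tested in each of the 3 comparisons, filled where the limma adjusted p was below 0.05. Filled points number 3 for B-ALL against wt proB, 5 for B-ALL against dHet proB and 4 for dHet proB against wt proB.

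Between the 3 leukemic mice, 14 of the 32 genes differed by the limma F test, against 22.3% of the 11293 genes tested there. The spread in that test is the one between libraries, so it does not cover variation among animals. Mouse 686 had the lowest level of 27 of the 32 genes, as of 26.2% of all genes tested between groups. Mouse 713 had the highest level of 20 (37.5% of all genes) and mouse 760 of 11 (31.3%). No gene of the 32 differed by 2-fold on the FPKM + 1 scale between the libraries of 1 mouse. The number differing was 9 without library 1 of mouse 686 (16.6% of all genes) and 23 without dHet proB library 2 (30.5%). In a fit of the 6 B-ALL libraries alone 29 of 31 tested differed, as did 47.7% of all genes. The library numbers were taken as paired between the mice, which was clear for mice 686 and 713 but not for mouse 760. With the number as a block in that fit the count was again 29 of 31, with 51.3% of all genes.

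Most of the 14 genes were low in mouse 686 and high in mouse 713. Usp18, the protease that removes ISG15 from proteins and dampens interferon receptor signalling, had 3.12 and 2.56 FPKM for mouse 686, 32.2 and 32.5 for mouse 713, and 5.82 and 6.39 for mouse 760. Mouse 713 lay above the wt proB libraries (20.9 and 24.7), while mice 686 and 760 lay within the dHet proB range (6.61, 1.76 and 4.52, F test adjusted p = 0.00083). Zbp1, a sensor of Z-form nucleic acid that triggers necroptosis, had 0.799 and 1.26 FPKM for mouse 686, 9.76 and 9.58 for mouse 713, and 2.92 and 1.98 for mouse 760, 3.03, 1.22 and 3.06 for dHet proB and 13.4 and 11.7 for wt proB (adjusted p = 0.000909). Mouse 713 was again alone among the mice, somewhat below wt proB. Xaf1, an antagonist of the inhibitor of apoptosis XIAP, had 4.46 and 4.08 FPKM for mouse 686, 24.8 and 26.6 for mouse 713, and 10.1 and 10.1 for mouse 760, with 11.2, 5.62 and 7.56 for dHet proB and 10.3 and 13 for wt proB (adjusted p = 0.000494). Mouse 760 lay in the range of the proB libraries, mouse 686 below all of them and mouse 713 above.

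In other genes mouse 686 lay below a similar level in mice 713 and 760. Oasl1 (adjusted p = 0.000195), Oas1a (adjusted p = 0.00945) and Oasl2 (adjusted p = 0.0131) belong here. Oas3 differed too (adjusted p = 0.00292), with mouse 760 between the other two and nearer to mouse 686. Isg20, an exonuclease that degrades RNA, had 6.85 and 8.02 FPKM for mouse 686, 19.8 and 20.9 for mouse 713, and 19.6 and 15.8 for mouse 760 (adjusted p = 0.00575), with 14.8, 11.5 and 8.5 for dHet proB and 10.8 and 13.7 for wt proB. Dhx58, which encodes LGP2, a regulator of the RIG-I-like sensors, had 3.93 and 4.19 FPKM for mouse 686, 10.2 and 8.9 for mouse 713, and 9.14 and 10.4 for mouse 760, 4.45, 2.46 and 4.21 for dHet proB and 6.81 and 8.16 for wt proB (adjusted p = 0.0101). For both genes mouse 686 lay below wt proB and the other mice above it. Ifit3, an IFIT adaptor that shares 51.2% of its 50-base words with Ifit3b, had 0.755 and 1.06 FPKM for mouse 686, 2.04 and 2.76 for mouse 713, and 2.01 and 2.03 for mouse 760, 2.86, 1.69 and 1.73 for dHet proB and 2.66 and 3.6 for wt proB. Its difference between mice (adjusted p = 0.0418) was lost in 10 of 18 other settings.

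Mouse 760 stood apart in 3 genes. Ifi44 was at 2.51 and 2.70 FPKM there and stayed at or below 0.0545 in the other mice (adjusted p = 2.83e-05). Isg15, the ubiquitin-like modifier, had 3.95 and 4.48 FPKM for mouse 686, 6.72 and 6.34 for mouse 713, and 10.9 and 12.4 for mouse 760, with 7.51, 4.35 and 5.56 for dHet proB and 10.6 and 14.4 for wt proB (adjusted p = 0.0093). It was highest in mouse 760, which lay in the range of wt proB. Bst2 was also highest in mouse 760 but lowest in mouse 713 (adjusted p = 0.0167), and lost this call without any 1 library of mice 713 or 760. Samd9l ran in the opposite order to most of the genes, highest in mouse 686 and lowest in mouse 713 (adjusted p = 0.0288). That call was lost in 5 of 18 other settings. Rtp4, a chaperone-like protein that restrains viral replication, had 26.1 and 28.9 FPKM for mouse 686, 26.6 and 25.1 for mouse 713, and 61.4 and 63.2 for mouse 760, 52, 16.8 and 36 for dHet proB and 21.6 and 34.3 for wt proB. It was highest in mouse 760 but did not pass with all libraries in the fit (F test adjusted p = 0.10), and passed in 4 of 18 other settings.

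Markers of other cell types differed between the mice too. By the F test 4 of 9 plasmacytoid dendritic cell, 7 of 10 neutrophil and monocyte and 6 of 8 T and NK cell markers passed. Of the proliferation markers 0 of 4 passed, and of all genes tested there 22.3%. The neutrophil and monocyte sum was 260 to 262 FPKM in mouse 686, 118 to 130 in mouse 713 and 28.6 to 28.7 in mouse 760. T and NK cell markers summed to 20.3 to 22, 30.8 to 31.2 and 8.82 to 9.97 FPKM in the same order. Among the mice, 686 thus had the lowest mean level of the interferon-stimulated genes and the highest neutrophil and monocyte sum. Lyz2 made up most of this sum, at 204 FPKM in each library of mouse 686. Of the 10 markers, only Itgam was highest in another mouse, 713. In wt proB the neutrophil and monocyte sum was 539 to 561 FPKM, with set levels of 3.40 in library 1 and 3.61 in library 2. Irf8, a transcription factor of dendritic cells and B cells, was at 221 and 229 FPKM in mouse 713 and at most 23.2 in the other mice. The part of these cells in the differences between mice was not tested.

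Among the dHet proB libraries, library 2 had the lowest level of 25 of the 32 genes, as of 38.2% of all genes. Irf7 was at 5.80 FPKM there against 24.6 and 21, and Rtp4 at 16.8 against 52.0 and 36.0. The sum of 4 proliferation markers was 640 FPKM in this library, 408 in library 1 and 260 in library 3. The 6 plasmacytoid dendritic cell markers summed to 2.86, 25.1 and 5.00 FPKM in libraries 2, 1 and 3. Most of the sum in library 1 was Cox6a2, at 20.7 FPKM, while Siglech, Klk1 and Cd300c were at 0. The part of proliferation or of other cells in the low levels of library 2 was not tested. Herc6 went the other way, with its highest dHet proB value in library 2.

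The remaining genes passed no test with all libraries in the fit. In the ISG15 pathway, Trim25, the ubiquitin ligase that activates RIG-I, had 23.4 and 19 FPKM for mouse 686, 26.6 and 23.8 for mouse 713, and 23 and 25.8 for mouse 760, 26.6, 13.6 and 24.3 for dHet proB and 21.6 and 21.2 for wt proB. Herc6, the mouse ligase that joins ISG15 to its targets, ranged from 3.33 to 7.83 FPKM. Among the sensors, Eif2ak2, the kinase PKR that halts translation on double-stranded RNA, had 21.9 and 18.3 FPKM for mouse 686, 24.3 and 24.3 for mouse 713, and 20.9 and 23.7 for mouse 760, 15.8, 16.1 and 18.2 for dHet proB and 13.1 and 17.1 for wt proB. All B-ALL libraries lay above all proB libraries, by 0.39 ± 0.16 (SE) against dHet proB and 0.53 ± 0.18 against wt proB, and neither passed (adjusted p = 0.104 and 0.0696). Adar, the enzyme that edits adenosine in double-stranded RNA, had 12.1 and 9.51 FPKM for mouse 686, 17.7 and 15.7 for mouse 713, and 13.9 and 13.5 for mouse 760, 12.6, 9.13 and 15 for dHet proB and 13 and 15.1 for wt proB, with all groups overlapping. Ddx58, which encodes the sensor RIG-I, ranged from 2.18 to 7.09 FPKM.

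The ADP-ribosylation genes lie side by side, as Parp14, Dtx3l and Parp9. Dtx3l and PARP9 form a ubiquitin ligase and ADP-ribosyltransferase complex. Dtx3l had 20.6 and 17.9 FPKM for mouse 686, 21.9 and 21.5 for mouse 713, and 25.7 and 27.6 for mouse 760, 31.7, 20.2 and 31.5 for dHet proB and 21.4 and 22.3 for wt proB. Parp9 had 11.1 and 10.6 FPKM for mouse 686, 16.1 and 17.8 for mouse 713, and 16.4 and 17.2 for mouse 760, 19.7, 12.8 and 18.5 for dHet proB and 12.8 and 10.5 for wt proB. The ratio of Dtx3l to Parp9 stayed between 1.21 and 2.13 over all libraries. Parp14 ranged from 2.93 to 4.98 FPKM. No gene of the 3 passed in any comparison, between mice included, with all libraries in the fit.

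Ifi35, a partner of NMI in antiviral signalling, had 62.2 and 64.8 FPKM for mouse 686, 103 and 103 for mouse 713, and 95.9 and 78.8 for mouse 760, 53.5, 45.2 and 70.9 for dHet proB and 83.3 and 103 for wt proB. Its mean in B-ALL, 84.6 ± 19.9 FPKM (SD, n = 3), was the highest of the set, ahead of Bst2 by less than the spread between mice, and it passed no test with all libraries in the fit. Between mice it passed in 4 of 18 other settings. Rsad2, the gene of the antiviral enzyme viperin, and Cmpk2, a mitochondrial nucleotide kinase, are neighbours that differed widely in level. Cmpk2 ranged from 10.9 to 33.6 FPKM, while Rsad2 did not exceed 0.812 FPKM. In the libraries where Rsad2 was above 0, Cmpk2 was 29.4 to 143 times as high. Trim21, an intracellular antibody receptor, stayed between 0.281 and 0.698 FPKM, and Ifit1, which binds RNA without cap methylation, between 0.291 and 3.08.

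The signalling genes upstream were read from a further list of 125 measured genes of the interferon pathway, of which 95 were tested. The calls of these genes are those of the reported fit and were not followed in the other settings. The type I ligands were nearly silent: 12 of 18 interferon alpha, beta and related genes were listed at 0 in all libraries, and the highest value of any was 0.267 FPKM. Ifng, the type II ligand, was at 0.652 and 0.539 FPKM in wt proB, at 0 in dHet proB and at no more than 0.10 in B-ALL. Of 6 receptor genes, Ifngr1, the ligand-binding chain for interferon gamma, was higher in B-ALL than in both proB groups. Its mean was 365 ± 15.4 FPKM in B-ALL, 99.8 ± 25.9 in dHet proB and 61.3 ± 3.94 in wt proB (log2 change 2.55 ± 0.22 SE, adjusted p = 0.000415 against wt proB and log2 change 1.89 ± 0.19 SE, adjusted p = 0.00116 against dHet proB). Its partner Ifngr2 did not pass.

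The chains of the type I receptor differed between dHet proB and wt proB in opposite directions. Ifnar1 was at 29.6 and 27.2 FPKM for mouse 686, 29.9 and 25.4 for mouse 713, and 33.3 and 27.4 for mouse 760, 72.1, 51.2 and 52.1 for dHet proB and 26.7 and 36.2 for wt proB. It was higher in dHet proB than in wt proB (log2 change 0.87 ± 0.20 SE, adjusted p = 0.0347) and lower in B-ALL than in dHet proB (log2 change -0.98 ± 0.18 SE, adjusted p = 0.00863). Ifnar2 was at 38.9 and 37.1 FPKM for mouse 686, 36.4 and 35.3 for mouse 713, and 42.3 and 43 for mouse 760, 40.3, 30.7 and 30.7 for dHet proB and 84 and 71.8 for wt proB. It was lower than in wt proB in both B-ALL (log2 change -0.99 ± 0.18 SE, adjusted p = 0.00862) and dHet proB (log2 change -1.18 ± 0.18 SE, adjusted p = 0.0049). The receptor chain Il10rb, shared with interferon lambda, was lower in B-ALL than in dHet proB (log2 change -0.82 ± 0.17 SE, adjusted p = 0.0116), while Ifnlr1 did not pass between groups.

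Among the kinases and STATs downstream of the receptors, Jak2 passed against both proB groups. Jak2, a kinase of the interferon gamma receptor, had a mean of 1.77 ± 0.639 in B-ALL, below the 3.63 ± 0.247 of wt proB (log2 change -0.77 ± 0.22 SE, adjusted p = 0.0475) and the 4.42 ± 0.231 of dHet proB (log2 change -1.0 ± 0.20 SE, adjusted p = 0.011). Jak1, Tyk2 and Stat3 did not pass between groups. Among 6 further interferon regulatory factors, Irf1 and Irf4 were lower in B-ALL than in wt proB (log2 change -1.21 ± 0.27 SE, adjusted p = 0.020 and log2 change -2.66 ± 0.40 SE, adjusted p = 0.00436).

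Over the 95 genes tested of this list, 5 were higher and 11 lower in B-ALL than in wt proB, as were 8.15% and 10.0% of all genes tested. The rises were led by Ifngr1, Ms4a6b (log2 change 1.72 ± 0.45 SE, adjusted p = 0.0343) and Tgtp1, an interferon-induced GTPase (log2 change 1.58 ± 0.42 SE, adjusted p = 0.0364), and the falls by Irf4, the immunity-related GTPase Iigp1 (log2 change -1.83 ± 0.23 SE, adjusted p = 0.00208) and Sp100, a nuclear body protein (log2 change -1.77 ± 0.52 SE, adjusted p = 0.0498). Tgtp1 has a near-identical copy, so its reads are uncertain, and the libraries of a mouse differed: it was at 4.21 and 0.0038 FPKM for mouse 686, 3.40 and 0.0038 for mouse 713, and 5.73 and 4.16 for mouse 760. Library 2 of mice 686 and 713 thus lay at the level of wt proB (0.0007 and 0.0351). Tgtp1 reached FPKM 1 only in B-ALL and Iigp1 only in wt proB, so each entered the tests through the group in which it is high. Phf11b, named below, stayed under FPKM 1 in all dHet proB libraries and entered through the other groups. Against dHet proB, 16 were higher and 7 lower, as were 14.5% and 11% of all genes. The RNA sensor Tlr7 (log2 change 2.66 ± 0.34 SE, adjusted p = 0.00249), Phf11b (log2 change 2.60 ± 0.47 SE, adjusted p = 0.00803) and Ms4a4b (log2 change 2.29 ± 0.40 SE, adjusted p = 0.00744) led the rises, and Ifit1bl1 (log2 change -2.10 ± 0.48 SE, adjusted p = 0.0184), Irf4 (log2 change -1.39 ± 0.36 SE, adjusted p = 0.0265) and Jak2 the falls. Between dHet proB and wt proB, only Ifnar1 was higher (2.18% of all genes) and 11 were lower (6.50%), led by Phf11b (log2 change -3.14 ± 0.52 SE, adjusted p = 0.00804), Sp100 (log2 change -2.10 ± 0.52 SE, adjusted p = 0.0439) and Iigp1 (log2 change -1.96 ± 0.23 SE, adjusted p = 0.00182). The antiviral GTPase Mx1 was listed at 0 in dHet proB, at 0 to 0.579 FPKM in B-ALL and at 1.88 and 3.10 in wt proB. Between the mice 40 of 97 genes of this list differed, as did 22.3% of all genes tested there.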

How the data were processed

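Gene expression was measured by RNA sequencing in 11 mouse libraries. The authors deposited 1 table of FPKM per library for 24319 genes. Per the submitters' processing notes, these rest on the build mm9, alignment by STAR 2.5.3a and the Cufflinks suite (Cufflinks and Cuffnorm 2.2.1, with Cuffdiff also named), after bcl2fastq. How Cuffnorm scaled the values and which annotation served are not given in the sources used. The tables hold no counts, so depth and counting error are unknown.

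FPKM was transformed to log2(FPKM + 1), which understates changes of low genes. The 2 libraries of a mouse were averaged, giving 8 units. Genes with FPKM 1 or more in 2 units (11110) were tested with limma 3.58.1 (R 4.3.3, statmod 1.5.0) with all 3 groups and a mean-variance trend, two-sided, with Benjamini-Hochberg adjustment at 0.05. For differences between mice, a limma F test took all 11 libraries (11293 genes). The code was checked on simulated data. The labels do not say whether dHet proB or wt proB libraries came from separate animals, so their p-values measure the spread between libraries, which may be technical. The sample titled replicate 3 of dHet proB, whose source name says replicate 2, was taken as library 3. No libraries held identical values. The difference between libraries 1 and 2 correlated across genes at 0.64 between mice 686 and 713. With mouse 760 it correlated at 0.13 (mouse 686) and 0.21 (mouse 713), and at -0.13 to 0.11 where a proB group was involved. The numbers of the mice were taken as paired, which is unsure for mouse 760, and the labels name no shared batch.

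The genes, the pathway and marker lists and the tests were chosen with earlier results of these data known. All 34 genes are named. Those that passed, the 2 most abundant of each role and those standing apart have a value for each library. Up to 3 pathway genes per direction and comparison are named by largest change, besides the receptors, kinases and STATs. A pathway gene and a B lineage marker are not reported here. Alternatives covered the pseudocount (0.1), the filter, scaling, the fit and leaving out libraries. Gene by gene they were read for the 34 genes only, not for the pathway genes or markers. Promoter sequences are from RefSeq (GRCm38.p6), another build than mm9. Shared sequence was counted as 50-base words of GENCODE transcripts.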

Additional observations from a re-analysis of the deposited data

How the results depend on the processing

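The number higher in B-ALL than in dHet proB was 5 in the reported fit, as were 14.5% of all genes. It was 5 to 7 in all 24 alternatives, against 6.97% to 15.2% of all genes. No called change reversed. Against wt proB, the number lower in B-ALL was 2 in the reported fit (10.0% of all genes). It was 1 with a pseudocount of 0.1 (9.29%), without the filter (8.60%) or after quantile normalization (9.48%). On leaving out a mouse, a library of a mouse or a dHet proB library it was 1 to 3 (6.21% to 12.3%). The number higher was 0 after rescaling to TPM (4.49%) and 0 to 1 on leaving out 1 of these (3.39% to 10.1%). The number lower in B-ALL than in dHet proB was 1 after rescaling to TPM (15.1%) and with the mouse as a random effect (9.11%). It was 0 to 1 on leaving 1 out in the same way (5.27% to 11.8%). For dHet proB against wt proB the number lower was 7 with only the 2 groups in the fit (8.65%). It was 2 to 7 on leaving 1 out in the same way (4.77% to 8.38%). Between the mice it was 29 with only the 6 B-ALL libraries, where 31 genes were tested, and 9 to 23 on leaving out a library. The causes were not tested.

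The replicate numbers gave no clear pairing of the mice with the proB libraries, of these with each other, or of mouse 760 with the other mice. With a replicate block the number lower in B-ALL was 4 against wt proB (10.8% of all genes) and 1 against dHet proB (8.33%). Between mice, 29 genes differed with it (51.3%). The block called Stat2 lower than in wt proB in B-ALL (adjusted p = 0.0290) and in dHet proB (adjusted p = 0.0477), and lost Oas3 between dHet proB and wt proB (adjusted p = 0.091). With 2 wt proB libraries, the calls against wt proB other than those of Bst2 were lost on leaving out either one. Bst2 lost its call in B-ALL against wt proB without wt proB library 1 (log2 change -1.43), and kept it in dHet proB against wt proB. Unknown depth limits the reading of genes near FPKM 1.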
